A study of Arabidopsis thaliana with 20 samples.

Results

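The 10 genes described here encode factors that cut the pre-mRNA and add its polyA tail in *Arabidopsis thaliana*. They were picked by gene ID, out of 37184 IDs in the counts, for their place in the machinery. The rule used no measured value, although earlier results of these data were known when it was set. They are *CPSF160* (AT5G51660), *CPSF100* (AT5G23880), *CPSF73-I* (AT1G61010), *CPSF73-II* (AT2G01730), *CPSF30* (AT1G30460), *FY* (AT5G13480), *CSTF77* (AT1G17760), *CSTF64* (AT1G71800), *CSTF50* (AT5G60940) and *PCFS4* (AT4G04885). Their transcript levels were compared between WT, the Col-0 accession, and *msh-1*, a homozygous T-DNA insertion line in the same background in which the unit of the lncRNA *MUSHER*, downstream of *DOG1*, is interrupted. RNA came from siliques taken 13 to 20 days after pollination, which the study's text calls freshly harvested seeds, and was profiled by 3'RNA-seq in 4 libraries per genotype. In this assay cDNA is primed from the polyA tail and only 3' fragments are kept, so counts do not scale with the length of the transcript. Whether a count is a read or a UMI is not given in the sources used here. Each genotype is a single line, and *msh-1* is a single insertion allele.

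The 3' end of an mRNA is made when a large protein assembly recognises signals in the nascent transcript, cuts it, and extends the cut end with adenosines. CPSF (cleavage and polyadenylation specificity factor) holds the signal-binding subunits and the endonuclease, CstF (cleavage stimulation factor) binds elements downstream of the cut, and cleavage factor II links the assembly to RNA polymerase II. Many genes carry more than one polyA site, and *DOG1*, the gene for a main inducer of seed dormancy, is cut at a proximal site that gives *shDOG1* or at a distal site that gives *lgDOG1*. The question put to these counts was whether the genes of the machinery were themselves expressed differently in *msh-1*.

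The WT libraries held 959004 to 2498295 counts and the *msh-1* libraries 2590800 to 6500907, so depth and genotype cannot be told apart. *MUSHER* was not analysed here, and both *DOG1* isoforms are pooled in its gene count. In a chi-square per gene, a measure that grows with depth, 2 libraries stood apart. They were left out together in some fits below, a choice made with earlier results of these data known. WT replicate 4 differed from the other WT libraries by 3.54 to 5.07, against 1.58 to 2.52 among those. The deepest library, *msh-1* replicate 1, differed from the other *msh-1* libraries by 5.66 to 10.1, against 1.77 to 4.76 among those. It was not alone, since *msh-1* replicate 2 differed from replicates 3 and 4 by 4.76 and 4.75, against 1.77 between replicates 3 and 4. The 6 seed markers, storage proteins and an oleosin, made up 4.40 to 5.72% of the normalised counts, and none was at 0. The sum hides *SESA3*, which was at 79.7% of WT in *msh-1* (edgeR adjusted p = 0.492). Without WT replicate 4 and *msh-1* replicate 1 its log2 fold change was -0.47 (edgeR adjusted p = 7.4e-05). *CRB* was at 92.7% of WT, *CRC* at 97.1%, *SESA1* at 100.3%, *OLEO1* at 101.5% and *CRA1* at 101.7%. The 5 markers of green tissue summed to 15.3 to 67.8 CPM (counts scaled to a common library size with TMM factors) in WT and 23.8 to 86.6 CPM in *msh-1*, lowest within each genotype in WT replicate 4 and *msh-1* replicate 1. Within the green markers the members differed. *LHCB1.1* was at 2.71 ± 1.61 CPM for WT against 11.6 ± 7.08 CPM for *msh-1* (SD, n = 4 each), higher in each *msh-1* library than in all of WT, with an edgeR adjusted p of 0.24 over the 8 libraries and 0.0017 without WT replicate 4 and *msh-1* replicate 1. *LHCB2.1* was at 78.2% of WT (edgeR adjusted p = 0.799), *RBCS1A* at 110% and *LHCA1* at 131%, and none of these passed the test. *RBCS2B*, at 0 to 8.66 CPM, was too low for it. It had 4 counts in WT and 68 in *msh-1*, a mean of 0.493 CPM against 4.47 CPM, and the groups overlapped. In edgeR with no filter on low counts its adjusted p was 0.00017. Of 3 valve margin markers *SHP1* had 3.29 to 13.9 CPM, *ALC* had 4 counts in all and *IND* had none. The part of these markers in the results below was not tested. In bulk RNA, fewer cells of a type and less RNA per cell cannot be told apart.

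None of the cleavage and polyadenylation factors was called different between *msh-1* and WT. In edgeR's quasi-likelihood test across 10902 genes, a call required more than a 1.5-fold difference with adjusted p below 0.05, and 0.413% of all genes tested were called (45 genes), 0.101% as higher and 0.312% as lower in *msh-1*. Of the 10 members, 7 passed the filter on low counts and were tested, and 3 (*CPSF73-II*, *FY* and *CSTF50*) did not. Among the 7, 0 were called and 0 had an unadjusted p under 0.05, while 8.48% of all tested genes had one. DESeq2 on the 8 libraries, which called 0.44% of all genes, also called 0 members, and so did edgeR without WT replicate 4 and *msh-1* replicate 1, which called 2.53% of all genes. The log2 fold changes lay between -0.33 and 0.32, with adjusted p-values from 0.758 to 0.988 in edgeR's test, and 1 was positive and 6 negative. Their median was -0.15, beside -0.01 over all tested genes. This tally depends on the filter. In edgeR with no filter on low counts the 3 untested members were positive. Their log2 fold changes were 0.25 for *CPSF73-II*, 0.49 for *FY* and 0.59 for *CSTF50* (adjusted p = 0.881, 0.79 and 0.742). The 4 WT and 4 *msh-1* libraries overlapped in CPM for each of the 10 members, and in 4.76% of all tested genes they did not overlap.

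The machinery was expressed at moderate to low levels. Summed over the 10 members, the libraries held 74 to 483 counts, that is 77.0 to 91.2 CPM. The 2 most abundant members were *CSTF77*, at 18.0 CPM over the 8 libraries, above 78.8% of the 23032 genes with any count, and *PCFS4*, at 16.2 CPM. A middle group followed with *CPSF73-I* at 9.97 CPM, *CPSF30* at 8.36 CPM, *CPSF100* at 7.53 CPM, *CSTF64* at 7.00 CPM and *CPSF160* at 5.68 CPM. The lowest were *FY* at 3.15 CPM, *CPSF73-II* at 3.08 CPM and *CSTF50* at 2.82 CPM, which is above 48.1% of the genes with any count. *CSTF77* and *PCFS4* were each above *CPSF100*, *CSTF64* and *CPSF160* without overlap of their ranges over libraries. Neighbours in this order overlapped throughout, and *CSTF77* was above *PCFS4* in 7 of 8 libraries, *PCFS4* above *CPSF73-I* in 8, *CPSF30* above *CPSF100* in 3 and *FY* above *CPSF73-II* in 5. Within the middle group, *CPSF73-I* was above *CPSF160* in 8 of 8 libraries, with overlapping ranges. The order of every other pair in that group, and of every pair in the lowest 3, varied between libraries. *CPSF160* was above *FY* in 7 of 8 libraries, so the border between these groups is not sharp either.

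**Figure D1:**
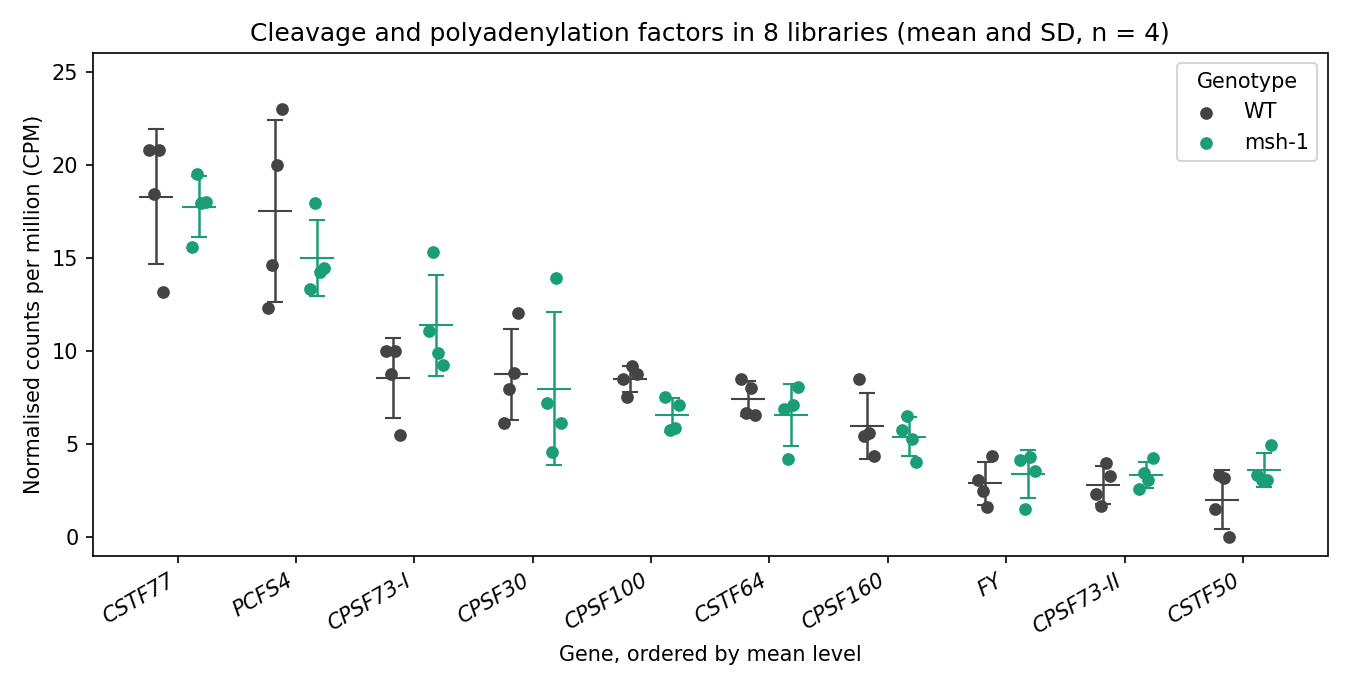
Level of each of the 10 genes in CPM (vertical axis) in the 4 WT and 4 *msh-1* libraries, ordered by mean level. Points are libraries, horizontal marks are means and bars are SD; the genotypes overlap for every gene, and the means run from 18.0 CPM for *CSTF77* to 2.82 CPM for *CSTF50*.

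*CPSF73-I* encodes the endonuclease of the complex and was the only tested member with a positive log2 fold change. It was at 10.0, 8.79, 10.0 and 5.48 CPM in WT replicates 1 to 4 and at 11.1, 15.3, 9.90 and 9.23 CPM in *msh-1* replicates 1 to 4. The highest library was *msh-1* replicate 2 and the lowest WT replicate 4, and the other 6 lay close together. The means were 8.57 ± 2.14 CPM for WT against 11.4 ± 2.72 CPM for *msh-1* (SD, n = 4 each), a log2 fold change of 0.32 (SE 0.23, edgeR adjusted p = 0.76). The 95% interval of the fold change reached from 0.887 to 1.76. The log2 fold change was 0.18 without *msh-1* replicate 2. Its paralogue *CPSF73-II*, which encodes a related nuclease-type subunit, had 3, 4, 10 and 3 counts in WT and 16, 9, 10 and 18 counts in *msh-1*. These counts were too low for the test. On the CPM scale they gave 2.82 ± 1.03 for WT against 3.34 ± 0.711 for *msh-1* (SD, n = 4 each), which overlapped (exact permutation p = 0.371, two-sided, on log2(CPM + 0.5)).

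*CPSF100* encodes a homologue of the endonuclease that is held to be without cleavage activity. It was at 8.47, 7.53, 9.20 and 8.76 CPM in WT and at 7.54, 5.74, 5.88 and 7.10 CPM in *msh-1* replicates 1 to 4. Its groups overlapped through *msh-1* replicate 1, which was just above the lowest WT library, and the other *msh-1* libraries were below all of WT. The log2 fold change was -0.33 (SE 0.21, edgeR adjusted p = 0.758), and the exact permutation p was 0.0571, where 0.0286 is the smallest that 4 libraries against 4 allow. Relative to WT, the average level in *msh-1* was 77.3%.

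*CPSF160* encodes the large scaffold subunit, which in mammals forms a platform with the homologue of FY. It was at 8.47, 5.44, 5.60 and 4.38 CPM in WT and at 5.78, 6.50, 5.26 and 4.02 CPM in *msh-1*. WT replicate 1 was the highest and the genotypes otherwise covered the same range, with a log2 fold change of -0.15 (SE 0.27). Without WT replicate 1 it was 0.0060. *FY* encodes a WD40 repeat subunit that binds the flowering time regulator FCA. It had 4, 6, 4 and 4 counts in WT and 26, 4, 14 and 15 counts in *msh-1*, that is 2.89 ± 1.16 CPM and 3.40 ± 1.29 CPM (SD, n = 4 each; exact permutation p = 0.657). Its lowest level was in *msh-1* replicate 2 and its highest in WT replicate 4, so neither genotype lay on one side.

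*CPSF30* encodes an RNA-binding subunit, and the gene is known to give a short protein and a long one that also carries a YTH domain, a reader of methylated adenosines, by use of different polyA sites. The TAIR10.1 annotation of RefSeq lists 3 transcripts with 3 different ends for it, 2959 bases apart at most, and the counts pool them. *CPSF30* was at 6.16, 7.95, 8.80 and 12.1 CPM in WT and at 7.22, 4.59, 13.9 and 6.16 CPM in *msh-1* replicates 1 to 4. The highest and the lowest of the 8 values were both in *msh-1*, in replicates 3 and 2. Its log2 fold change was -0.10 with the widest standard error of the tested members, 0.33 (edgeR adjusted p = 0.988). Without *msh-1* replicate 3 the log2 fold change was -0.45, and without *msh-1* replicate 2 it was 0.042, with adjusted p-values between 0.787 and 1.000 when each library was left out. The variance of its counts between libraries, divided by the variance of pure counting, was 6.85 in *msh-1* and 0.771 in WT. In *msh-1* this was the largest such ratio of the 10 members, whose median was 0.906, and the median over all tested genes was 1.34. In WT the largest ratio was 1.88, for *PCFS4*, and the median of the members was 0.759, against 1.02 over all tested genes. The ratio was above 1 for 2 members in WT and for 4 in *msh-1*. With 4 libraries per genotype and counts this low, a ratio below 1 does not show that further spread was absent.

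In CstF, *CSTF77* encodes the subunit that joins the others into the complex. It was at 20.8, 18.4, 20.8 and 13.2 CPM in WT and at 15.6, 19.5, 17.9 and 18.0 CPM in *msh-1*. WT replicate 4 was the lowest and the other WT libraries were at or above most of *msh-1*. The log2 fold change was -0.10 (SE 0.16, edgeR adjusted p = 0.922), and its 95% interval of the fold change, 0.736 to 1.18, was the narrowest of the members. *CSTF64* encodes the subunit that binds RNA downstream of the cut. It was at 8.47, 6.69, 8.00 and 6.57 CPM in WT and at 6.90, 4.21, 7.11 and 8.05 CPM in *msh-1*, with a log2 fold change of -0.15 (SE 0.25). Only *msh-1* replicate 2 was below all WT libraries. In the TAIR10.1 annotation the 3' end of *CSTF64* overlaps AT1G71810 on the opposite strand by 45 bases, and that of *CSTF77* overlaps AT1G17750 by 14 bases. The strand setting of the counting is not given in the sources used here, so counts in an overlap could belong to either gene, but these partners held 39 and 1 counts over the 8 libraries. None of the other 8 members overlapped an annotated gene on the opposite strand.

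*CSTF50* encodes a WD40 repeat subunit, and RefSeq lists the ID without a symbol. It had 2, 8, 8 and 0 counts in WT and 21, 8, 10 and 21 counts in *msh-1*. In WT replicate 4, a count of 0 allows up to 3.29 CPM (3 counts, counting error only). That is close to or above the level of most other libraries, so the 0 does not show a lower level there. The means were 2.02 ± 1.58 CPM for WT against 3.62 ± 0.909 CPM for *msh-1* (SD, n = 4 each; exact permutation p = 0.229). Pooled over libraries, the counts of the 3 untested members gave *msh-1* to WT ratios of 1.45 for *CSTF50* (95% exact interval 0.845 to 2.61), 1.43 for *FY* (0.83 to 2.57) and 1.15 for *CPSF73-II* (0.678 to 2.04). Each interval holds 1, and covers counting error only. WT replicate 4, the shallowest library, had under 10 counts for 7 of the 10 members.

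*PCFS4* encodes a homologue of yeast Pcf11, a subunit of cleavage factor II, and is known to promote flowering through the choice of polyA site in *FCA*. It was at 12.3, 14.6, 20.0 and 23.0 CPM in WT and at 13.3, 18.0, 14.2 and 14.4 CPM in *msh-1*. The WT libraries spanned the *msh-1* range on both sides. The means were 17.5 ± 4.89 CPM and 15.0 ± 2.05 CPM (SD, n = 4 each), and the log2 fold change was -0.22 (SE 0.19, edgeR adjusted p = 0.809). The highest WT value was in replicate 4. Without WT replicate 4 and *msh-1* replicate 1 the log2 fold change of *PCFS4* was -0.076 (adjusted p = 0.932).

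The intervals state how large a change these libraries leave room for. The 95% intervals of all 7 tested members held a log2 fold change of 0, and all 7 excluded a halving or a doubling. At low counts, as for *CPSF100*, the standard errors behind them can fall below counting error, so the intervals can be too narrow. In 6 of the 7 the interval reached past a 1.5-fold change in at least 1 direction, so a change of that size lies within what the data allow for those genes. *CSTF77* was the exception. In the same libraries *DOG1* (AT5G45830) fell, with a log2 fold change of -0.92 and a 95% interval of -1.18 to -0.67. The lower ends of the members' intervals ran from -0.81 for *CPSF30* to -0.17 for *CPSF73-I*, so that all 7 excluded the value of -0.92 fitted for *DOG1*. The intervals of *CPSF30*, *CPSF100* (from -0.79), *CPSF160* (from -0.73) and *CSTF64* (from -0.68) still reached into that of *DOG1*, and those of the other tested members did not. Counted against the machinery, which needs no scaling, *DOG1* had 59.4, 57.1, 43.0 and 44.6 counts per 100 counts of the 10 members in WT and 30.2, 27.1, 24.5 and 27.6 in *msh-1* replicates 1 to 4. Each *msh-1* library was below each WT library in this ratio. It was chosen after the values of both were known and is given as a description, with no test.

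**Figure D2:**
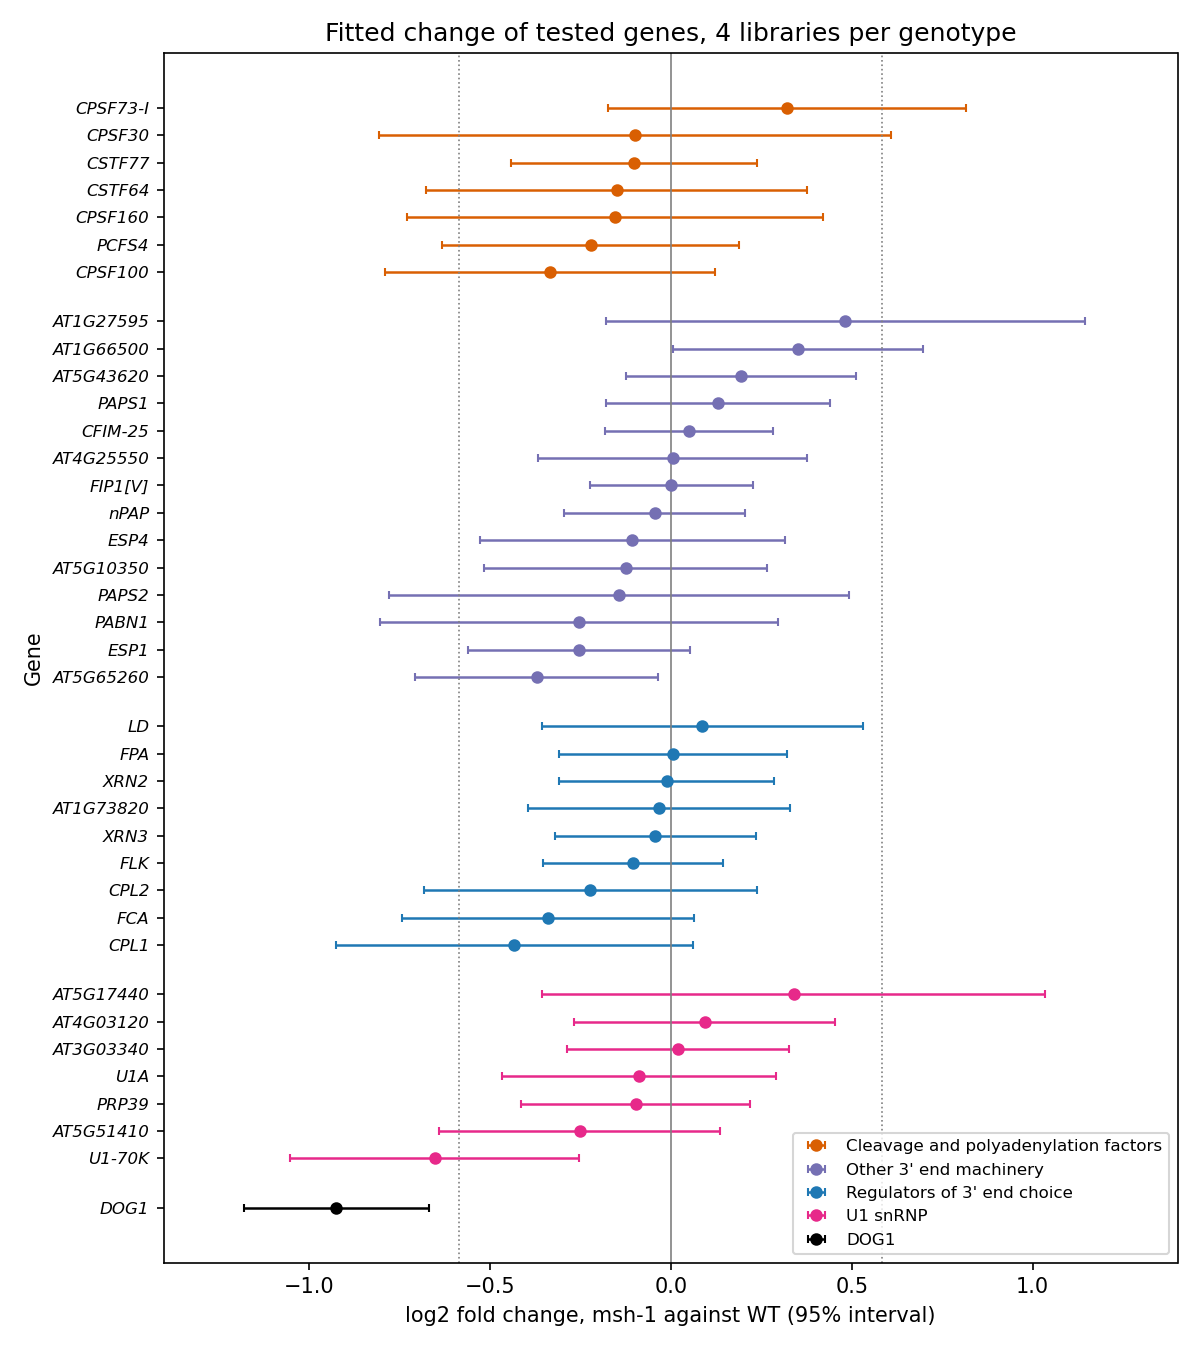
Log2 fold change of *msh-1* against WT (horizontal axis) for the tested genes of each list, 4 libraries per genotype, with 95% intervals as bars and dotted lines at a 1.5-fold change. The 7 cleavage and polyadenylation factors all span 0, while *DOG1* lies at -0.92 and *U1-70K* at -0.65.

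Summed by complex, the genotypes overlapped. The 6 CPSF members summed to 37.5 ± 2.43 CPM for WT against 38.0 ± 3.34 CPM for *msh-1* (SD, n = 4 each). The 3 CstF members summed to 27.8 ± 5.55 CPM and 27.9 ± 2.26 CPM, with the lowest sum, 19.7 CPM, in WT replicate 4. All 10 together gave 82.7 ± 6.04 CPM for WT and 81.0 ± 3.07 CPM for *msh-1*. These sums are descriptions, with no test.

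Ratios of 2 genes within a library do not depend on scaling, and 3 were compared, with 0.5 added to each count. *CPSF73-I* exceeded *CPSF73-II* in 8 of 8 libraries, by 1.57- to 4.78-fold, with a log2 ratio of 1.53 ± 0.715 for WT against 1.72 ± 0.470 for *msh-1* (SD, n = 4 each; exact permutation p = 0.743). *CSTF64* was below *ESP1*, the gene for its paralogue CSTF64L, in 8 of 8 libraries, with log2 ratios of -1.76 ± 0.226 and -1.78 ± 0.308 (SD, n = 4 each; exact permutation p = 1.00). This was the steadiest of the 3 ratios, and *ESP1* was at 26.1 ± 4.68 CPM for WT against 22.3 ± 1.85 CPM for *msh-1* (SD, n = 4 each), above each of the 10 members on average. *FY* was below *FCA* in 8 of 8 libraries, with log2 ratios of -2.07 ± 0.543 for WT against -1.54 ± 0.684 for *msh-1* (SD, n = 4 each; exact permutation p = 0.257). After Benjamini-Hochberg adjustment over the 3 ratios the permutation p-values were 1.00, 1.00 and 0.771, and the genotypes overlapped in each.

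**Figure D3:**
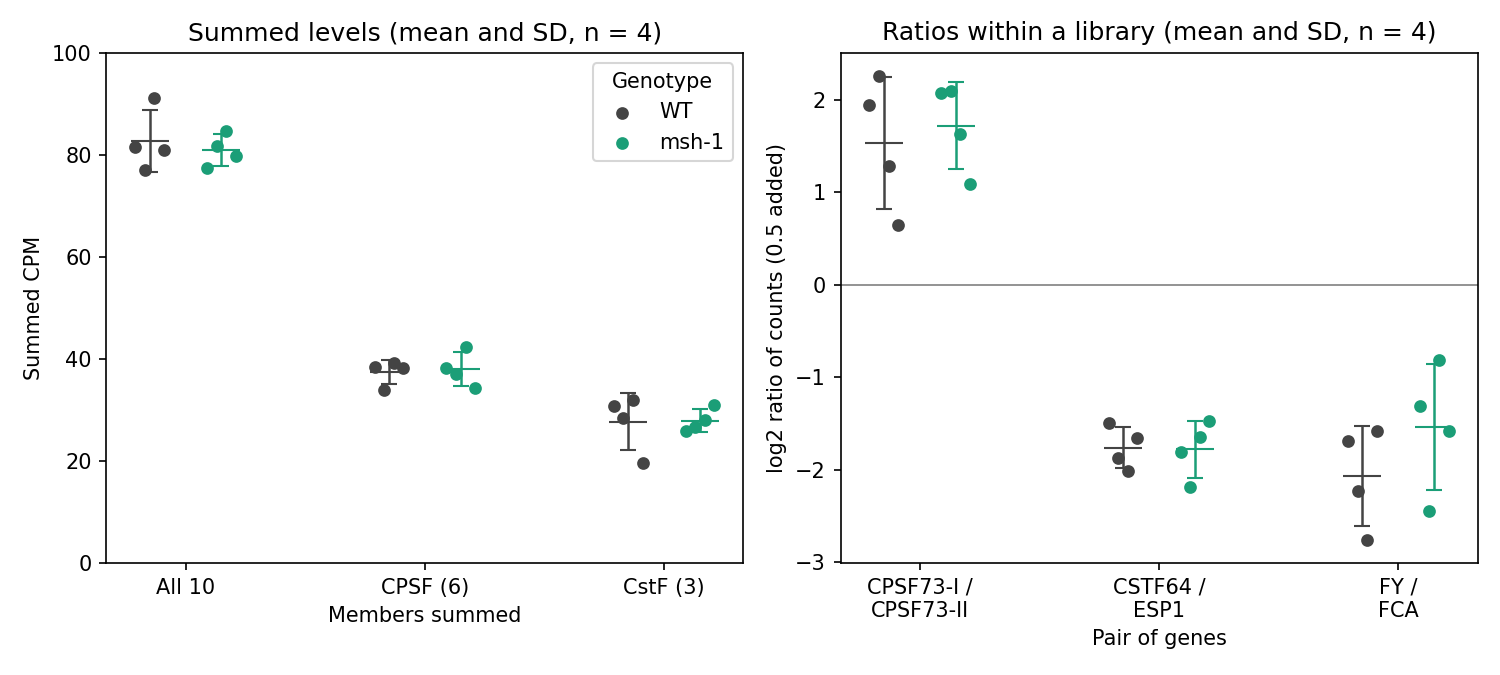
Left, summed CPM of all 10 members, the 6 of CPSF and the 3 of CstF. Right, log2 ratio of counts within a library for 3 pairs of genes; points are libraries, marks are means and bars SD (n = 4), and WT and *msh-1* overlap in all 6 comparisons.

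No tested gene of 3 lists of related genes was called, where 0.413% of all tested genes were. At that share, 0 calls in lists this short say little about their genes. Of 18 further genes of the 3' end machinery with a row in the counts, 14 were tested and 0 were called. They included the polyA polymerases, the nuclear polyA-binding proteins, symplekin homologues and subunits of cleavage factors I and II. Their levels reached 67.9 CPM, for *CFIM-25* (AT4G29820), which encodes a subunit of cleavage factor I. Their log2 fold changes lay between -0.37 and 0.48, with a median of -0.02. Of the 14 tested, 2 genes had an unadjusted p under 0.05, beside 8.48% of all tested genes. These were AT5G65260, annotated as an RNA-binding protein and listed here among the nuclear polyA-binding proteins, and AT1G66500, annotated as a protein of pre-mRNA cleavage complex II and listed beside *PCFS4*. AT1G66500 was singled out after its values were seen.

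AT5G65260 was at 22.3, 18.0, 27.2 and 26.3 CPM in WT and at 19.6, 18.0, 16.7 and 17.0 CPM in *msh-1*, a log2 fold change of -0.37 (SE 0.16, edgeR adjusted p = 0.53). Its groups overlapped through WT replicate 2. AT1G66500 was at 26.2, 27.2, 20.8 and 15.3 CPM in WT and at 25.0, 28.7, 32.2 and 32.4 CPM in *msh-1*, a log2 fold change of 0.35 (SE 0.16, edgeR adjusted p = 0.579). The largest log2 fold change of this list, 0.48 (SE 0.31, edgeR adjusted p = 0.749), was that of AT1G27595, a symplekin homologue at 4.00 CPM.

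Among 9 regulators of 3' end choice and termination, all 9 were tested and 0 were called, with log2 fold changes from -0.43 to 0.09 and a median of -0.04. The most abundant was *XRN3*, an exoribonuclease gene, at 41.7 CPM. *FCA*, which promotes proximal polyA site use in the antisense RNA of *FLC*, was at 12.4 ± 1.44 CPM for WT against 9.56 ± 1.42 CPM for *msh-1* (SD, n = 4 each), a log2 fold change of -0.34 (edgeR adjusted p = 0.679). *LD*, a homeodomain gene of the same flowering pathway, had the highest log2 fold change at 0.088. *CPL1*, which encodes a phosphatase of the Pol II C-terminal domain, had the lowest, at 16.2, 10.5, 9.20 and 17.5 CPM in WT and 7.86, 9.18, 10.8 and 9.23 CPM in *msh-1* (log2 fold change -0.43, SE 0.23, edgeR adjusted p = 0.655). Its annotated 3' end overlaps AT4G21680 on the opposite strand by 44 bases. That gene was at 757 to 847 CPM in WT and 890 to 930 CPM in *msh-1*, so counts of *CPL1* are uncertain. The part of the overlap in them was not tested.

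All 7 genes of the U1 snRNP list were tested and 0 were called, with a median log2 fold change of -0.09. U1 snRNP recognises splice sites and is known to hold back early cleavage and polyadenylation. *U1-70K* (AT3G50670), which encodes a core protein of the particle, had the lowest log2 fold change. It was at 17.7, 22.2, 20.0 and 18.6 CPM in WT replicates 1 to 4 and at 14.0, 9.18, 16.1 and 10.9 CPM in *msh-1* replicates 1 to 4. Each *msh-1* library was below each WT library, and the average level in *msh-1* was 63.8% of that in WT. The exact permutation p of 0.0286, the smallest possible, follows from that lack of overlap alone, in a gene named for its low fold change. The log2 fold change was -0.65 (SE 0.19) with an unadjusted p of 0.0035, but the adjusted p was 0.226 in edgeR's quasi-likelihood test, and between 0.0551 and 0.575 over 17 other settings. It was the only gene of the 4 lists whose genotypes did not overlap, beside 4.76% of all tested genes, or 2.19% with *msh-1* the lower. The most abundant gene of the list, *PRP39*, was at 27.7 ± 6.28 CPM for WT against 25.1 ± 2.00 CPM for *msh-1* (SD, n = 4 each). The highest log2 fold change, 0.34 (SE 0.32, edgeR adjusted p = 0.834), was that of AT5G17440, annotated as a LUC7-related protein. It had 1 count in WT replicate 4, and its log2 fold change was -0.071 without that library and *msh-1* replicate 1.

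**Figure D4:**
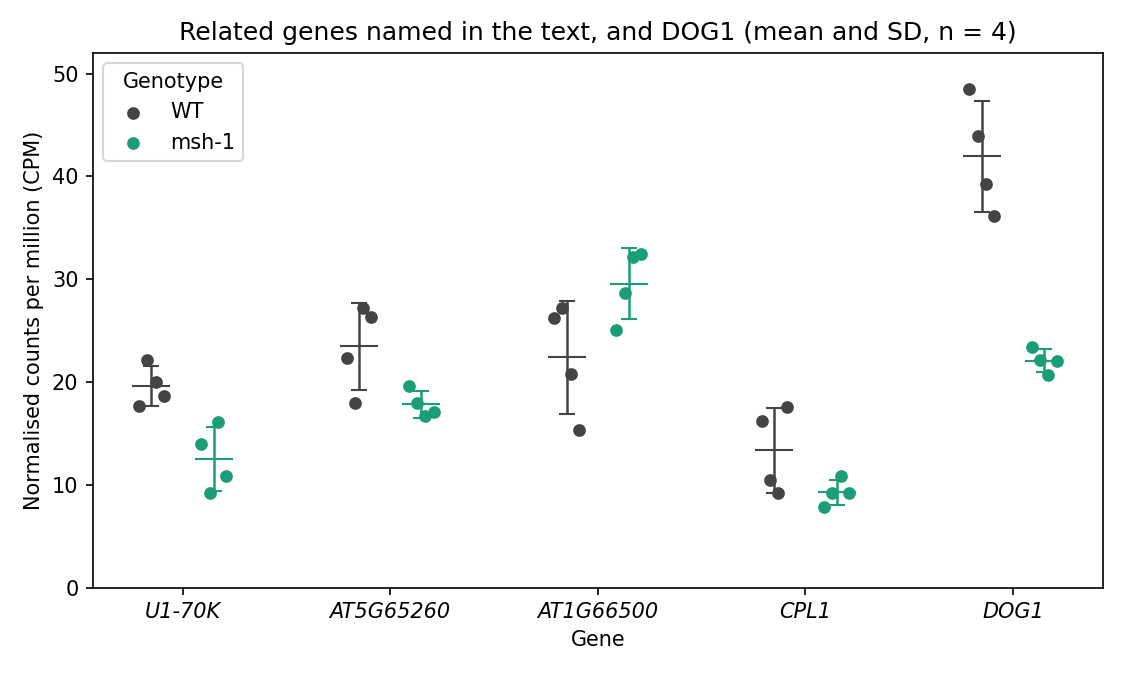
CPM (vertical axis) of 4 related genes and *DOG1* in the 4 WT and 4 *msh-1* libraries, with means as marks and SD as bars. The genotypes are apart for *U1-70K* and *DOG1* and overlap for AT5G65260, AT1G66500 and *CPL1*.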

How the data were processed

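The authors made 3'RNA-seq libraries with oligo(dT) primers carrying UMIs, aligned reads with STAR 2.7.8a to TAIR10 and deposited whole-number counts per gene ID, 1 table per library. The annotation, the strand setting and whether reads or UMIs were counted are not given in the sources used here. From these counts, edgeR 4.0.16 in R 4.3.3 (filterByExpr, TMM, quasi-likelihood test, Benjamini-Hochberg over 10902 genes) compared 4 *msh-1* with 4 WT libraries. Standard errors were the log2 fold change divided by the root of F, and 95% intervals used the t distribution on the total degrees of freedom. At low counts these intervals can be narrower than the p-values imply. For single genes, log2(CPM + 0.5) was permuted over all assignments of the 8 libraries (exact, two-sided). The labels do not say what separates the replicates, while the study's reporting summary describes RNA samples as collected from several plants for each replicate. Replicate pairs differed by more than sampling noise (lowest chi-square per gene 1.58). A count of 3, the limit that 0 allows, was 0.481 to 3.29 CPM. Alternatives were other scalings and filters, DESeq2 1.42.0, limma-voom 3.58.1, a replicate block and libraries left out. The members were picked by gene ID, and they, the lists and the tests were chosen with earlier results of these data known. Named genes were the members, *ESP1*, *FCA*, *DOG1*, *PIR1*, any called gene of the 3 related lists, and in each of these the most abundant gene and those with the highest and lowest log2 fold change. Of the gene IDs, 36899 matched RefSeq (TAIR10.1), used for names and gene models only. The ChIRP and ChIDP samples were not analysed here.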

Additional observations from a re-analysis of the deposited data

Results flagged for a closer look

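A library far from the other 3 of its genotype (Dixon's test at the 95% level) was found in 4 of 54 groups of libraries, where chance gives about 2.7. *CSTF50* was highest in *msh-1* replicate 4, at 4.97 CPM, from 21 counts. *XRN3* was highest in *msh-1* replicate 2, at 49.3 CPM, and so was the symplekin homologue AT1G27595, at 6.50 CPM. *PIR1* had 2 counts in *msh-1* replicate 1, that is 0.321 CPM, and none in the other *msh-1* libraries, against 75 counts over the 4 WT libraries. With the other *msh-1* libraries at 0 any count is flagged, so the flag of *PIR1* carries no information.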

How the results depend on the processing

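Members called stayed at 0 in all 17 alternatives, and so did calls in the 3 related lists, although only 2 members could be tested with at least 10 counts in every library. Genes called over all genes moved from 45 to 25 with library totals only, 438 with no filter on low counts, 1 with at least 10 counts in every library, 24 with limma-voom, 24 with the replicate block, 280 without WT replicate 4 and *msh-1* replicate 1 together, and 4 to 210 when each library was left out. Same-numbered libraries correlated in their deviations at -0.22, 0.15, 0.059 and -0.086, and not every library correlated best with its own number. The highest correlation, 0.40, was between WT replicate 4 and *msh-1* replicate 1. No sign of pairing by number was seen, but deviations centred within each genotype cannot exclude a pairing. The log2 fold change of *CPSF160* ranged from -0.23 to 0.0060 over single libraries left out, turning sign without WT replicate 1. That of *CPSF30* ranged from -0.45 to 0.042, turning sign without WT replicate 4 (0.012), *msh-1* replicate 2 (0.042) or *msh-1* replicate 4 (0.014), and was 0.068 without WT replicate 4 and *msh-1* replicate 1. With single libraries left out, log2 fold changes ranged from 0.18 to 0.41 for *CPSF73-I*, -0.18 to -0.027 for *CSTF77*, -0.25 to -0.025 for *CSTF64*, -0.33 to -0.11 for *PCFS4* and -0.41 to -0.27 for *CPSF100*. The *msh-1* minus WT difference in the log2 ratio of *CPSF73-I* to *CPSF73-II* ranged from -0.11 (without WT replicate 4) to 0.43 and was -0.22 without that pair of libraries. That of *CSTF64* to *ESP1* ranged from -0.12 to 0.12, with 0.068 without WT replicate 1 and 0.015 without WT replicate 4, and was 0.026 without the same pair. That of *FY* to *FCA*, 0.53 in all libraries, ranged from 0.29 (without *msh-1* replicate 3) to 0.83 (without *msh-1* replicate 2). The cause was not tested. Low counts, 74 to 483 per library summed over all 10 members, limit what could be seen.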
